A study of Mus musculus with 6 samples.

Results

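The genes described here write, copy, remove or read DNA methylation: the DNA methyltransferase genes Dnmt1, Dnmt3a and Dnmt3b, the Tet dioxygenase genes Tet1, Tet2 and Tet3, and the reader genes Uhrf1, Uhrf2 and Mbd2. They were chosen by gene symbol, 9 of the 23366 gene symbols in the count table, and all 9 passed the filter on low counts that left 11716 genes for testing. RNA was sequenced from regulatory T (Treg) cells, sorted as CD4+GFP+ cells from liver (3 libraries) and spleen (3 libraries). All mice, whichever tissue was taken, carried the Foxp3GFP knock-in, in which green fluorescent protein marks cells that express the Treg transcription factor Foxp3, and were 12 days old. No other genotype, age or treatment was used, and the sources used here do not say whether a library came from 1 animal or a pool, so the spread between libraries may be technical in part. Libraries are numbered in accession order. The labels do not say whether liver and spleen libraries shared animals, so the libraries were tested as unpaired.

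In dividing cells DNMT1 copies methylation onto the new strand behind the replication fork, at hemimethylated CpG sites that UHRF1 recognises and to which it brings DNMT1. DNMT3A and DNMT3B set methylation on DNA that lacked it, and TET enzymes oxidise methylated cytosine, the first step of its removal. MBD2 binds methylated CpG and brings the NuRD corepressor complex. In Treg cells an intronic enhancer of Foxp3 is demethylated, TET enzymes take part in that demethylation, and its loss of methylation is tied to stable Foxp3 expression.

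Dnmt1, Uhrf1 and Uhrf2 were higher in liver, Dnmt3a and Tet1 were lower, and Dnmt3b, Tet2, Tet3 and Mbd2 did not pass the test (edgeR quasi-likelihood test, threshold of 0.05 on the adjusted p over all tested genes). In all 5 of 9 genes passed, against 16.2% of all tested genes. The genes were chosen with earlier results of these data known, so the shares given here are a description. Of the 9, 3 (33.3%) were higher, against 9.28% of all tested genes, and 2 (22.2%) were lower, against 6.9% of all tested genes. For 7 of 9 genes no liver library fell within the spleen range, against 32.9% of all tested genes: 4 lay above in liver, against 17.7%, and 3 below, against 15.2%. The differences were moderate: the log2 fold changes ran from -0.89 (Tet1) to 0.60 (Uhrf1). Of all tested genes, 10.8% had a larger absolute log2 fold change than Tet1, the most different of the 9. The 9 genes had a signed median of -0.18, with -0.01 over all tested genes, which does not measure size because both directions occur. Without spleen 1, the shallowest library, the counts were again 3 higher and 2 lower, and without spleen 2 they were 3 higher and 1 lower.

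**Figure D1:**
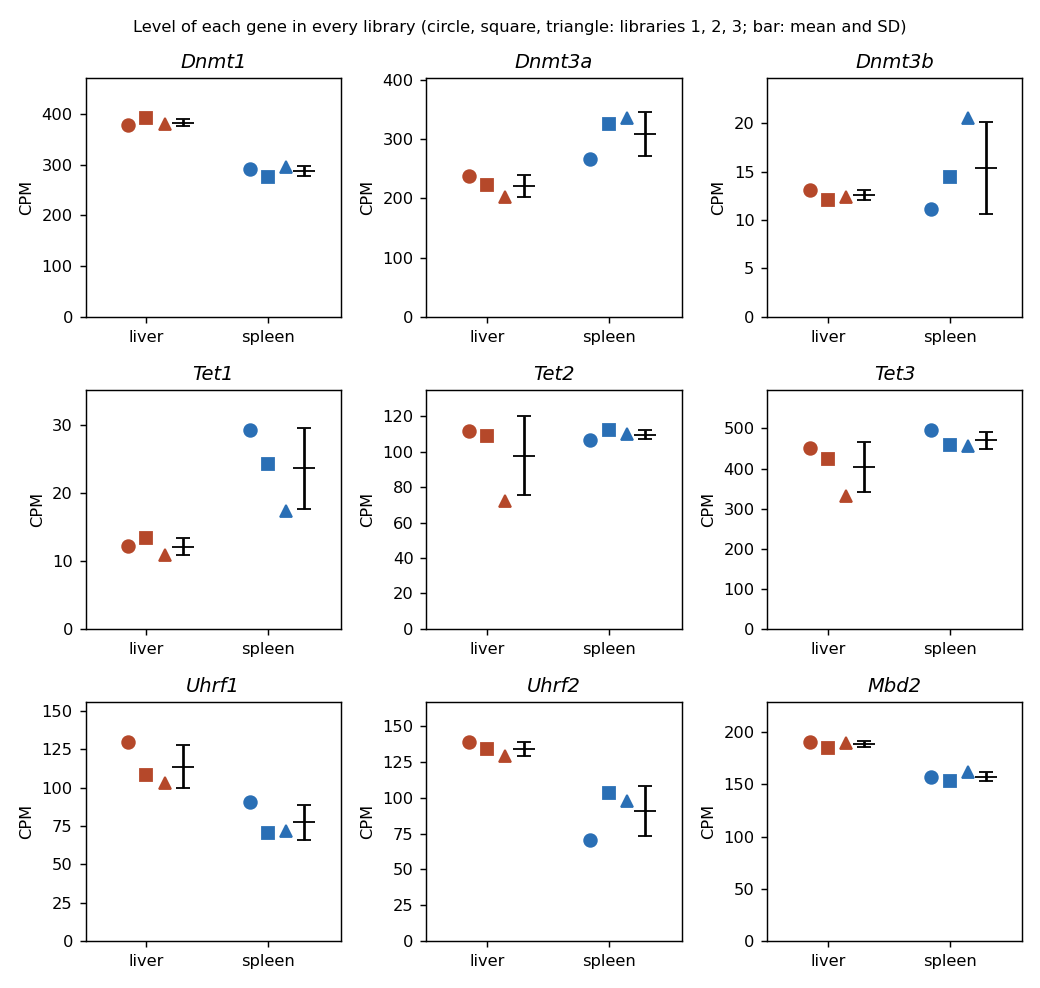
Level of each gene in CPM (counts relative to the scaled library size, vertical axes from 0) in every liver and spleen library, with the mean and SD (n = 3) as a bar; circle, square and triangle stand for libraries 1, 2 and 3. Every liver point lies above every spleen point for Dnmt1, Uhrf1, Uhrf2 and Mbd2, and below for Dnmt3a, Tet1 and Tet3.

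Libraries held between 8437055 and 10951720 counts in genes in liver and 1199410, 11408960 and 11358446 in spleen, so that 1 count was worth 0.861 CPM in spleen 1 and between 0.0855 and 0.12 CPM elsewhere. Spleen 1 therefore carries the least precise values, and its Dnmt3b and Tet1 levels rest on 13 and 34 counts. The Treg marker Foxp3 averaged 1266 ± 58.4 CPM in liver, against 1160 ± 57.6 CPM for spleen (SD, n = 3 each), and did not pass (edgeR adjusted p = 0.384). Transcripts of other cell types moved with the tissues. Over all tested genes, 9.28% were higher in liver and 6.9% lower. In liver against spleen the summed CPM of the erythroid list was 27.3 to 34.4 against 248 to 336 (9 of 9 tested genes lower in liver; 4 globin symbols at 0 in all libraries). That of the granulocyte list was 272 to 308 against 499 to 853 (10 of 11 lower). That of the macrophage list was 74.1 to 84.0 against 137 to 211 (9 of 10 lower; Spic at 0 in all liver libraries), and that of the B cell list 138 to 172 against 235 to 331 (6 of 10 lower). The list of NK and CD8 T cells summed to 43.4 to 53.5 CPM in liver and 24.1 to 32.4 CPM in spleen, with 4 of 7 higher and 1 lower. The hepatocyte list summed to 14.5 to 22.4 CPM in liver and 18.2 to 25.0 CPM in spleen, but its genes split, with 1 of 3 tested higher and 1 lower. Alb, the albumin gene, had 6.01, 2.20 and 7.32 CPM in liver, and Alb, Ttr, Fgb, Apob, Serpina1a and Cyp3a11 had 0 counts in every spleen library. Trf, the transferrin gene, had 9.97 ± 0.869 CPM in liver, against 17.2 ± 3.11 CPM for spleen (SD, n = 3 each). The megakaryocyte and platelet list summed to 4.40 to 6.21 CPM in liver and 7.37 to 12.9 CPM in spleen. The part of these cells in the differences below was not tested, and in sorted bulk RNA fewer cells of a type and less RNA per cell cannot be told apart.

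Dnmt1, the maintenance methyltransferase, had 378, 391 and 379 CPM in the liver libraries, against 291, 276 and 295 CPM in the spleen libraries. All 3 liver libraries were above all spleen libraries, and the libraries within a tissue differed little. The mean was 383 ± 7.44 CPM in liver and 287 ± 9.98 CPM for spleen cells (SD, n = 3 each), a log2 fold change of 0.42 ± 0.09 (SE; edgeR adjusted p = 0.00317). The call held in all 15 alternative settings.

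Uhrf1, which reads hemimethylated DNA through its SRA domain and is also a ubiquitin ligase, had 130, 108 and 103 CPM in liver and 90.4, 70.3 and 71.5 CPM in spleen. The tissues did not overlap, although the first library of each stood above the others. The log2 fold change was 0.60 ± 0.12 (SE; edgeR adjusted p = 0.00215). Uhrf2, a paralog that binds hydroxymethylated DNA and does not replace UHRF1 in maintenance, had 139, 134 and 129 CPM in liver and 70.6, 103 and 97.6 CPM in spleen. Again no spleen library reached a liver library, and the shallow spleen 1 was the lowest. Its log2 fold change was 0.51 ± 0.12 (SE; edgeR adjusted p = 0.00480). Without spleen 1 the log2 fold change of Uhrf2 was 0.42 and that of Uhrf1 was 0.68, and both stayed past the threshold in all 15 alternative settings.

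Mbd2, the methyl-CpG reader, had 190, 185 and 189 CPM in liver and 157, 153 and 162 CPM in spleen. The tissues did not overlap, and the log2 fold change was small, at 0.26 ± 0.09 (SE), and missed the threshold (edgeR adjusted p = 0.0569). With limma-voom and sample quality weights the adjusted p was 0.0238. All libraries were also thinned to the depth of spleen 1, in 1 random draw. There the log2 fold change moved to 0.39, with an edgeR adjusted p of 0.0265. Without spleen 2 the edgeR adjusted p was 0.252, the highest of the 15 alternative settings.

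Dnmt3a, a de novo methyltransferase gene often mutated in blood cancers, went the other way. It had 238, 222 and 201 CPM in liver, against 267, 325 and 335 CPM in spleen. All liver libraries were below all spleen libraries, with spleen 1 the nearest to liver. The mean was 221 ± 18.4 CPM in liver and 309 ± 36.8 CPM for spleen cells (SD, n = 3 each), a log2 fold change of -0.50 ± 0.10 (SE; edgeR adjusted p = 0.00229), and the call held in all 15 alternative settings. Dnmt3b, the second de novo enzyme, was far lower in counts, at 13.1, 12.1 and 12.4 CPM in liver and 11.2, 14.5 and 20.5 CPM in spleen. The liver libraries lay within the range of the spleen libraries, and its difference, -0.39 ± 0.23 on the log2 scale (SE), did not pass (edgeR adjusted p = 0.286), with a 95% interval from -0.87 to 0.09. It was -0.11 without spleen 3, the highest library for Dnmt3b, and -0.023 at equal depth, again not past the threshold. Dnmt3l, which encodes the catalytically inactive partner of the de novo enzymes, had 0 counts in all 6 libraries.

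Among the Tet genes the scarcest one differed. Tet1 had 12.1, 13.4 and 10.8 CPM in liver, against 29.3, 24.3 and 17.4 CPM in spleen. Every liver library was below every spleen library, while the spleen libraries spread widely. Its log2 fold change was -0.89 ± 0.22 (SE; edgeR adjusted p = 0.00963). Without spleen 2 it was -0.81 and no longer past the threshold (edgeR adjusted p = 0.0790); over the 15 alternative settings the adjusted p ran between 0.00171 and 0.0790.

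Tet2, the Tet gene most often lost in blood cancers, had 112, 109 and 72.0 CPM in liver and 107, 112 and 110 CPM in spleen. Liver 3 stood below the rest, and the other libraries were alike (log2 fold change -0.18 ± 0.14 SE, edgeR adjusted p = 0.453, 95% interval from -0.47 to 0.12). Without liver 3 the log2 fold change was 0.0028. Tet3, the most abundant Tet gene, had 452, 424 and 332 CPM in liver and 496, 459 and 458 CPM in spleen. All liver libraries were below spleen, with liver 3 again the lowest, and its difference, -0.22 ± 0.11 on the log2 scale (SE), did not pass (edgeR adjusted p = 0.205, 95% interval from -0.46 to 0.01). Without liver 3 the log2 fold change of Tet3 was -0.10, also not past the threshold.

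**Figure D2:**
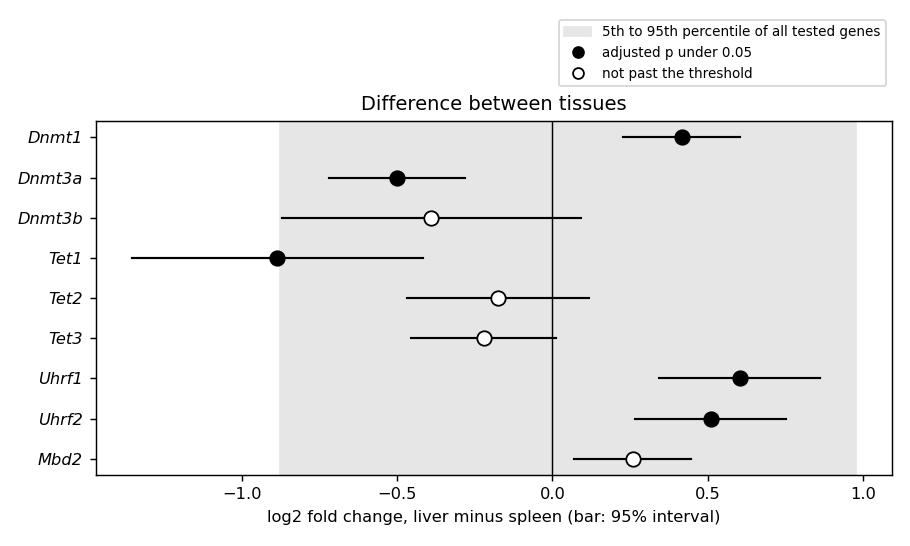
Log2 fold change of each gene, liver minus spleen (horizontal axis), with its 95% interval; filled points are past the threshold and the grey band spans the 5th to 95th percentile of all tested genes, -0.88 to 0.98. Dnmt1, Uhrf1 and Uhrf2 lie right of 0, Dnmt3a and Tet1 left of 0, and Tet1 alone lies just outside the band, at -0.89.

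Levels can be compared between genes only per length, here as CPM per kilobase of exon. By that measure Mbd2 was highest in both tissues, at 76.9 ± 1.2 CPM per kb in liver and 64.2 ± 1.77 CPM per kb for spleen cells (SD, n = 3 each), and Dnmt1 came next, at 60.7 ± 1.18 CPM per kb in liver and 45.6 ± 1.58 CPM per kb in spleen. In liver Uhrf2 (37.9 ± 1.37 CPM per kb), Tet3 (34.3 ± 5.33), Uhrf1 (31.0 ± 3.86) and Dnmt3a (22.3 ± 1.86) followed; the libraries of Uhrf2 and Tet3 overlapped, as did those of Tet3 and Uhrf1. In spleen the order was Tet3 (40.1 ± 1.84 CPM per kb), Dnmt3a (31.2 ± 3.71), Uhrf2 (25.6 ± 4.95) and Uhrf1 (21.1 ± 3.07), with overlap between Dnmt3a and Uhrf2 and between Uhrf2 and Uhrf1. Tet2 (10.6 ± 2.43 in liver and 11.9 ± 0.298 CPM per kb in spleen), Dnmt3b (2.90 ± 0.119 in liver and 3.56 ± 1.09 in spleen) and Tet1 (0.843 ± 0.0888 in liver and 1.65 ± 0.416 in spleen) were the lowest in both tissues. With the longest transcript in place of the union of exons the order was the same.

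The balance within each family was taken as shares. Of the summed Dnmt level per kb, Dnmt1 held 68.9%, 71.1% and 72.2% in liver and 61.0%, 54.8% and 54.8% in spleen. Dnmt3a held 27.6%, 25.7% and 24.4% in liver and 35.6%, 41.0% and 39.6% in spleen. Neither gene's shares overlapped between tissues. For every 100 Dnmt1 counts there were 63.0, 56.9 and 53.1 Dnmt3a counts in liver and 91.7, 118 and 114 in spleen, and this ratio, taken within a library, does not depend on the scaling between libraries. Its log2 value was lower in liver by 0.90, as -0.80 ± 0.12 in liver and 0.10 ± 0.20 in spleen (SD, n = 3 each; two-sided exact permutation p = 0.1, the smallest that 3 against 3 allows, and 0.4 after Benjamini-Hochberg adjustment over the 4 ratios tested).

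Within the Tet family Tet3 held 75.1 ± 1.49% in liver and 74.7 ± 0.893% in spleen, Tet2 held 23.0 ± 1.61% in liver and 22.2 ± 1.28% in spleen, and Tet1 held 1.86 ± 0.205% in liver and 3.05 ± 0.676% in spleen (SD, n = 3 each). Of the 3, only the shares of Tet1 did not overlap between tissues. For every 100 Tet3 counts there were 24.8, 25.7 and 21.6 Tet2 counts in liver and 21.5, 24.4 and 24.1 in spleen, with overlapping tissues (exact permutation p = 0.5, adjusted 0.667). Uhrf1 held 44.9 ± 2.18% of the Uhrf level in liver and 45.4 ± 8.56% in spleen, where spleen 1 stood apart at 55.3%.

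**Figure D3:**
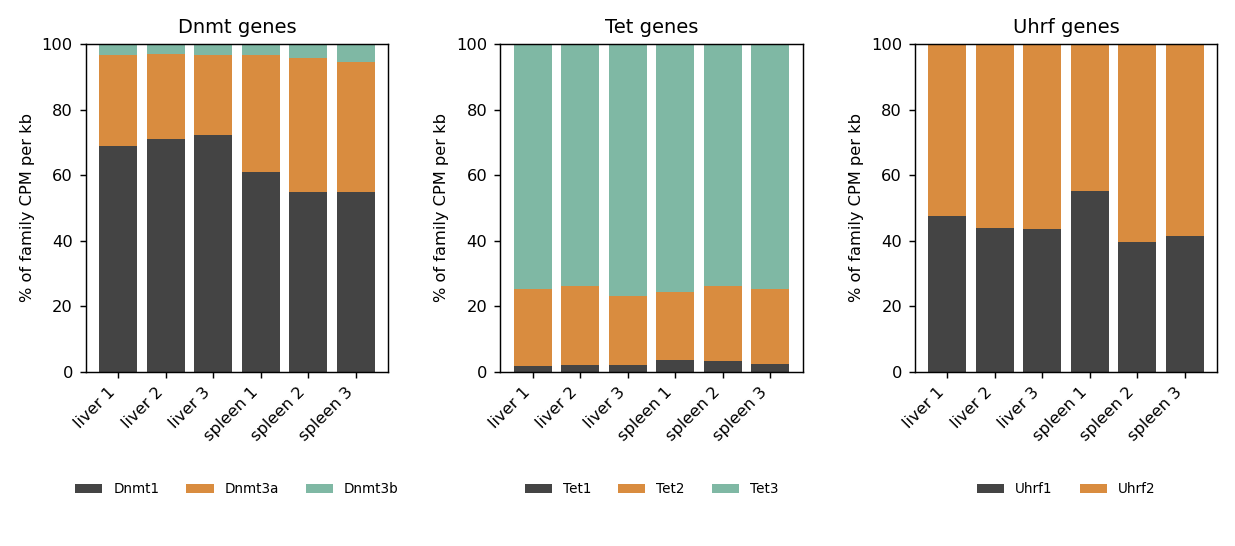
Share of each gene in the summed CPM per kb of its family (vertical axis, %), for the Dnmt, Tet and Uhrf genes in each library. Dnmt1 fills 68.9% to 72.2% of the Dnmt bar in liver and 54.8% to 61.0% in spleen, while Tet3 fills about the same part of every Tet bar.

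Dnmt1 and Uhrf1 act at replicating DNA, and proliferation genes were higher in liver in the same libraries. In the S phase list 12 of 25 tested members passed upward in liver, against 9.28% of all tested genes. The number downward was 0, and the median log2 fold change was 0.43. The number upward was 6 without spleen 2, where 722 of all 11942 tested genes were higher. It was 3 at equal depth, where 618 of 9167 were higher, against 1087 of 11716 in the main fit. Rrm2 (0.93 ± 0.13 SE) and Rrm1 (0.55 ± 0.11 SE), subunits of ribonucleotide reductase, and the helicase gene Mcm6 (0.44 ± 0.10 SE) had the smallest p. The summed level of the S phase list was 1773 to 1999 CPM in liver and 1353 to 1581 CPM in spleen. In the list of G2 phase and mitosis all 20 members passed upward, against 9.28% of all tested genes (median log2 fold change 1.51). Among them were the proliferation marker Mki67, the motor gene Kif11 and Cenpf. The sum of the list was 2656 to 2947 CPM in liver and 985 to 1142 CPM in spleen.

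Set against the S phase sum of the same library, Dnmt1 counts amounted to 21.1%, 22.1% and 19.0% in liver and 18.4%, 20.3% and 21.8% in spleen. The tissues overlapped, with a log2 difference of 0.04 (two-sided exact permutation p = 0.7, adjusted 0.7). Uhrf1 counts amounted to 7.24%, 6.10% and 5.16% of that sum in liver and 5.72%, 5.17% and 5.29% in spleen. Here too the tissues overlapped, with a log2 difference of 0.18 (exact permutation p = 0.4, adjusted 0.667). Set against the sum of G2 phase and mitosis genes, both were lower in liver: Dnmt1 was at 14.2%, 14.1% and 12.9% in liver and 25.5%, 28.0% and 29.4% in spleen, and Uhrf1 at 4.88%, 3.89% and 3.50% in liver and 7.91%, 7.14% and 7.13% in spleen (log2 differences of -1.01 and -0.87; exact permutation p = 0.1 each, the smallest possible). These ratios describe levels within a library, and the part of proliferation in the levels of Dnmt1 and Uhrf1 was not tested.

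**Figure D4:**
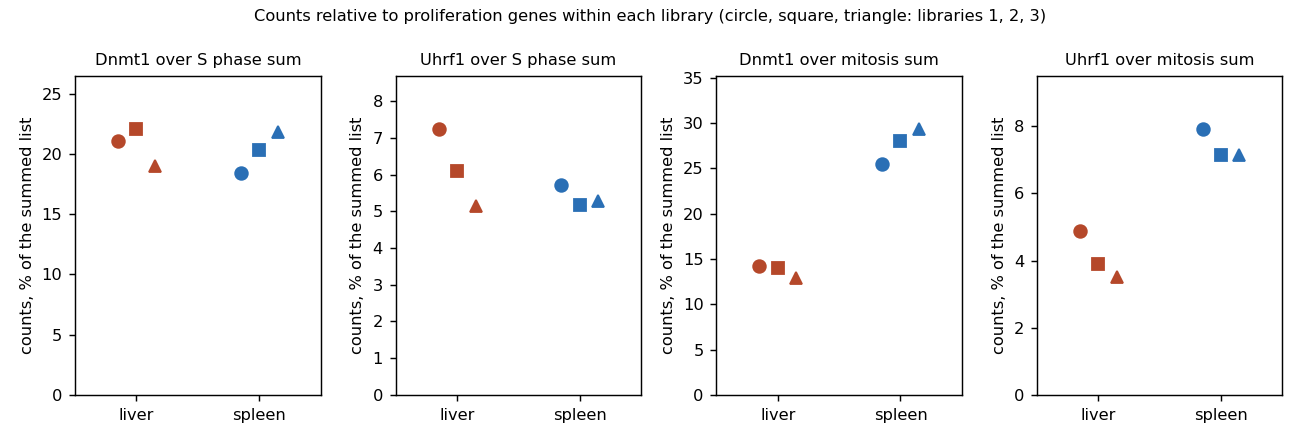
Counts of Dnmt1 and Uhrf1 as a percentage of the summed counts of the S phase list or of the G2 phase and mitosis list of the same library (vertical axes from 0), for 3 liver and 3 spleen libraries (circle, square and triangle for libraries 1, 2 and 3). The tissues overlap for the S phase list and separate for the mitosis list, where Dnmt1 is at 12.9% to 14.2% in liver and 25.5% to 29.4% in spleen.

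E2F factors bind promoters of S phase genes, so promoter windows from RefSeq (GRCm38.p6, 250 bases before to 50 after a transcript start) were searched on both strands for the E2F letters TTTCCCGC, TTTGGCGC, TTTCGCGC and TTTGCCGC. Windows were found for 8 of 9 genes (13 windows, none of Mbd2). The letters stood in 2 of them, 1 of Dnmt1 and 1 of Uhrf1, against 2.26% of all 32851 windows. Both genes had more than 1 window. All the E2F letters searched hold a CpG, and these 2 windows had 33 CpG sites each. The median over all windows was 7 and the upper quartile 20, so the share of all windows is not matched for CpG content. The letters TTTGAA (CHR), an element of mitotic promoters, stood in 2 of the 13 windows, against 17.9% of all windows, and CCAAT in 5, against 37.4%. Below are the windows with the most CpG sites of Dnmt1, Uhrf1 and Uhrf2, which were higher in liver, and of Dnmt3a and Tet1, which were lower, shown 5′ to 3′ on the gene's strand with E2F letters in capitals.
Dnmt1, chr9:20952574-20952873, minus strand: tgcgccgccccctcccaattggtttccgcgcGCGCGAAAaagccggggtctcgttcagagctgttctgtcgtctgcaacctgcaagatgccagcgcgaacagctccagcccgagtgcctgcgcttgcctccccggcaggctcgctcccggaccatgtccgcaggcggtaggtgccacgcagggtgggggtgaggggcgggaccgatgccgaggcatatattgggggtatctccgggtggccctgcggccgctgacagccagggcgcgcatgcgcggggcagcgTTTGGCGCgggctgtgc
Uhrf1, chr17:56304063-56304362, plus strand: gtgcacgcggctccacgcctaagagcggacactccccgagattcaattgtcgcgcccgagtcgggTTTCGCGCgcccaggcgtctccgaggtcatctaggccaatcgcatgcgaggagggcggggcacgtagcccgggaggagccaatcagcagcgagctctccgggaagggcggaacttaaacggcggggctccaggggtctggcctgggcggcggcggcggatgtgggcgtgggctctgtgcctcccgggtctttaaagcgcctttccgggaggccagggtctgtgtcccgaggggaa
Uhrf2, chr19:30030263-30030562, plus strand: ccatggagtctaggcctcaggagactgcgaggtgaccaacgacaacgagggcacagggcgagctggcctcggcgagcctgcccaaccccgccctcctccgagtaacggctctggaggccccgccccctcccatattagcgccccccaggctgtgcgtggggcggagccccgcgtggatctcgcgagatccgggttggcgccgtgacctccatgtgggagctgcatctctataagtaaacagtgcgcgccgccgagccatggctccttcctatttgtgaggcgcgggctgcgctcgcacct
Dnmt3a, chr12:3806910-3807209, plus strand: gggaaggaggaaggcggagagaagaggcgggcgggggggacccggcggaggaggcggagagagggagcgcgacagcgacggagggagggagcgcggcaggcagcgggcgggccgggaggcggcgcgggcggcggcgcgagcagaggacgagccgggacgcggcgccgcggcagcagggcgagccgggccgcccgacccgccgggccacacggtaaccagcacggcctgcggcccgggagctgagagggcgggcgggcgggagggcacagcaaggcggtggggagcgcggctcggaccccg
Tet1, chr10:62887275-62887574, minus strand: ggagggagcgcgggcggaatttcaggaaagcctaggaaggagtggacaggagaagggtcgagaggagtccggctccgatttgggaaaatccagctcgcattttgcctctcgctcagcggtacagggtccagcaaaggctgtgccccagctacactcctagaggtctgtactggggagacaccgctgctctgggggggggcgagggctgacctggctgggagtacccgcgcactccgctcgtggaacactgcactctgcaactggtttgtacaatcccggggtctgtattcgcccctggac
The Dnmt1 window holds the letters at 2 places and the Uhrf1 window at 1, and those of Uhrf2, Dnmt3a and Tet1 do not hold them. A match is a description of the letters and not of a bound site. The build of these sequences is later than mm9, the build of the counts.

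Of 84 tested genes in the other lists of the methylation machinery, 9 were higher in liver and 6 lower, 17.9% in all, near the 16.2% of all tested genes. Of 17 tested partners of maintenance and recruitment, 3 passed upward in liver, 0 downward, and 14 missed the threshold (17.6% called, near the share of all tested genes; median log2 fold change 0.09); without spleen 1 the number higher was 5, and without spleen 2 the number lower was 1, Cdca7. Lig1, the ligase that joins replication fragments and itself a UHRF1 partner, had 130 ± 11.1 CPM in liver and 76.1 ± 0.740 CPM for spleen cells (SD, n = 3 each; log2 fold change 0.78 ± 0.10 SE, edgeR adjusted p = 4.17e-05). Ehmt2, which encodes the histone methyltransferase G9a, was higher by 0.47 ± 0.09 (SE), and Cbx5, which encodes a heterochromatin protein, by 0.35 ± 0.11 (SE). The call for Cbx5 was lost when liver 1, liver 2, spleen 2 or spleen 3 was left out. Cdca7, an activator of the remodeller HELLS, which opens nucleosomes for methylation, had 24.2 ± 1.11 CPM in liver and 38.7 ± 12.3 CPM for spleen cells (SD, n = 3 each; edgeR adjusted p = 0.0537). Close to the threshold, Cdca7 passed as lower with upper-quartile scaling, the DESeq2 test, the robust fit and no filter. Without spleen 2 it passed too (edgeR adjusted p = 0.0279).

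Of 9 other genes from families with methyl-CpG binding members, 1 was higher, 1 lower and 7 did not pass. The share called was 22.2%, against 16.2% of all tested genes, and the median was -0.11. Zbtb38 was higher by 0.40 ± 0.12 (SE) and Zbtb4 lower by a log2 fold change of -0.38 ± 0.11 (SE); both encode zinc finger readers of methylated DNA, and the libraries of Zbtb4 overlapped between tissues. The first call was lost without liver 1, liver 2, spleen 2 or spleen 3, and the second without liver 1, liver 3, spleen 2 or spleen 3. Mbd5 had a log2 fold change of -0.56 ± 0.19 (SE; edgeR adjusted p = 0.0504), close to the threshold: it passed without liver 1 (edgeR adjusted p = 0.0302), with upper-quartile or DESeq2 scaling, the DESeq2 and limma-voom tests, the robust fit and both other filter settings. Mbd3, which takes the place of MBD2 in a second form of NuRD, had 86.0 ± 4.50 CPM in liver and 94.4 ± 19.5 CPM for spleen cells (SD, n = 3 each; edgeR adjusted p = 0.351). Of 12 NuRD partners of Mbd2 and Mbd3, 1 was higher, 1 lower and 10 did not pass (16.7% called, near the share of all tested genes; median -0.13). The remodeller gene Chd3 had 1172 ± 36.0 CPM in liver and 1522 ± 91.6 CPM for spleen cells (SD, n = 3 each; log2 fold change -0.38 ± 0.09 SE, edgeR adjusted p = 0.00632; 0.0582 without spleen 2, where the number lower was 0, and 2 genes were lower without liver 3). Mta3 was higher by 0.34 ± 0.10 (SE), a call lost without any 1 library but spleen 1.

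Of 12 tested genes of base excision repair and active demethylation, 3 passed upward in liver, 1 downward, and 8 missed the threshold (33.3% called, against 16.2% of all tested genes; median -0.05). Neil3, a DNA glycosylase gene, had 35.3 ± 2.64 CPM in liver and 14.1 ± 2.05 CPM for spleen cells (SD, n = 3 each; log2 fold change 1.39 ± 0.18 SE, edgeR adjusted p = 2.53e-05). Gadd45b, a stress response gene linked to demethylation, was higher by 0.84 ± 0.14 (SE) and the glycosylase gene Neil1 by 0.60 ± 0.17 (SE), and the call for Neil1 was lost without liver 1, liver 2 or spleen 3. Apex1, the endonuclease that cuts abasic sites, was lower by this fit (log2 fold change -0.98 ± 0.28 SE), a call lost without liver 2, liver 3 or spleen 2. Tdg, the glycosylase that removes the products of TET oxidation, had 1 count in liver 3 and 0 counts in the other 5 libraries; reads without a unique alignment stand in a summary row outside the gene counts. Of 7 tested Tet partners and CXXC genes 0 passed in either direction with edgeR, against 16.2% of all tested genes (median -0.01). In that list 1 gene had an unadjusted edgeR p under 0.05, DESeq2 called 0, and limma-voom called 1 lower.

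The supply of the methyl donor and of the TET cosubstrate was the last group. Of 12 genes of S-adenosylmethionine and one-carbon metabolism, 3 passed downward in liver, 0 upward, and 9 missed the threshold (25% called, against 16.2% of all tested genes; median -0.16); without spleen 1 the number higher was 1. Mat2a, which makes S-adenosylmethionine, had 89.2 ± 3.23 CPM in liver and 132 ± 12.1 CPM for spleen cells (SD, n = 3 each; log2 fold change -0.55 ± 0.10 SE, edgeR adjusted p = 0.000975). Mthfd1, an enzyme gene of the folate cycle, was also lower (-0.81 ± 0.15 SE). Of 15 genes of 2-oxoglutarate supply, 1 was higher, 0 were lower and 14 did not pass (median 0.09). The share called was 6.67%, against 16.2% of all tested genes. The higher gene was Glud1 (0.57 ± 0.10 SE), which encodes glutamate dehydrogenase, and 2 were higher without liver 2 or spleen 1. Of 6 genes known to be demethylated in Treg cells, 66.7% passed, against 16.2% of all tested genes. In liver 2 were higher (Ctla4 at 0.89 ± 0.12 SE and Ikzf2 at 0.35 ± 0.10 SE). Another 2 were lower (Il2ra at -0.60 ± 0.09 SE and Ikzf4 at -0.54 ± 0.11 SE), and Foxp3 and Tnfrsf18 did not pass. The number higher was 1, Ctla4, without liver 1, liver 2, spleen 2 or spleen 3. DNA methylation itself was not measured in these libraries.

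**Figure D5:**
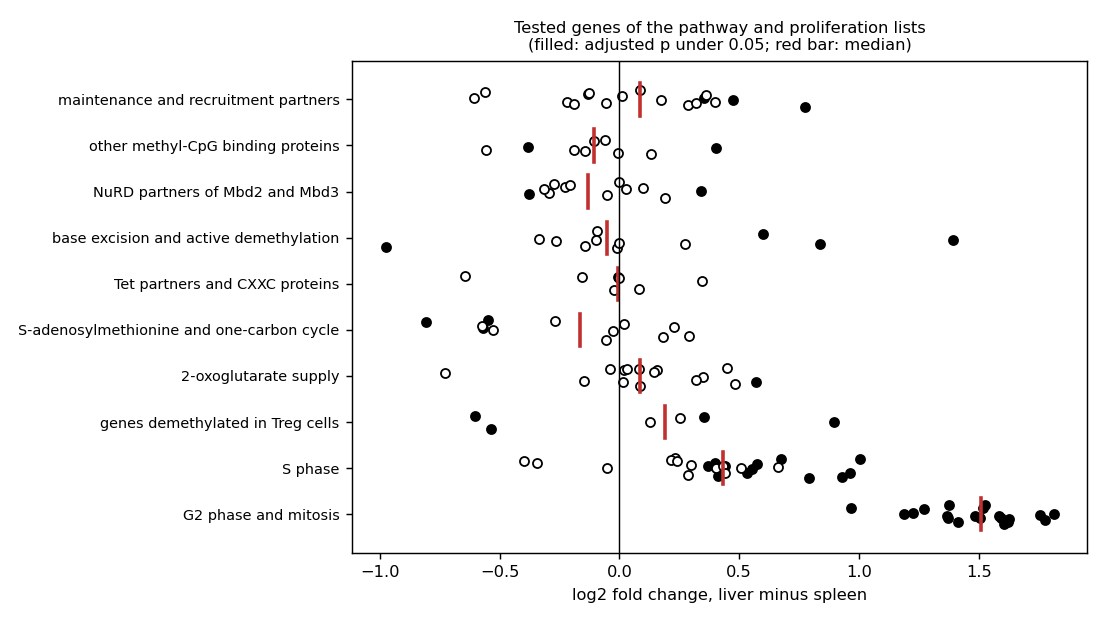
Log2 fold change, liver minus spleen (horizontal axis), of every tested gene in the pathway lists and the proliferation lists, filled where the adjusted p was under 0.05, with the median of each list in red. The methylation lists have medians from -0.16 to 0.19, and the G2 phase and mitosis list has a median of 1.51.

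The genes whose pattern over the 6 libraries was nearest to each called gene were named by Pearson's r of log2 CPM, as a description: the libraries share their tissue and depth, and many genes reach a high r. For Dnmt1 they were Rfx1 (r = 0.9999), Cyb5r4 (r = 0.998) and Tor1aip1 (r = 0.996), for Dnmt3a Map3k11, Pdcd11 and Meis3 (r = 0.989 to 0.992), and for Tet1 Shisa5, Snapc4 and Atp1b1 (r = 0.994 to 0.999). For Uhrf1 they were Cd47, Ptp4a2 and Nsmaf (r = 0.993 to 0.994) and for Uhrf2 Smek1, Nipal3 and Srgap2 (r = 0.997 to 0.998). Among the 9 genes themselves Dnmt1 was nearest to Mbd2 (r = 0.982), and Tet2 to Tet3 (r = 0.913).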

How the data were processed

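The authors deposited raw read counts per gene symbol for 6 libraries; HISAT2 2.1, HTSeq 0.11 and the build mm9 are named per the submitters' processing notes. No source used here gives the annotation, the strand setting or how reads were filtered. Of the counts in the table, 25.5% to 29% stood in HTSeq summary rows that name no gene and were left out.

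Counts were filtered with filterByExpr, scaled by TMM and tested, liver minus spleen, with edgeR 4.0.16 (quasi-likelihood F test, Benjamini-Hochberg adjustment over 11716 genes) in R 4.3.3; the biological coefficient of variation was 0.129. CPM use TMM-scaled totals, and the SE comes from the F statistic. Exon lengths come from GENCODE (GRCm38), where no other gene's exons overlap those of the 9 genes. Alternatives used DESeq2 1.42.0 and limma 3.58.1. The fit was tested on simulated counts. Each pair of libraries differed by more than sampling noise (chi-square over degrees of freedom at least 4.56).

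The genes, lists and tests were chosen with earlier results of these data known. Named were the 9 genes, the 4 list members of smallest p per pathway (3 for proliferation), and the 3 nearest genes by pattern with at least 10 CPM. Dnmt3l, Tdg, Spic, Tnfrsf18 and the hepatocyte genes other than Alb and Trf were added after their values were seen. A further gene that the rule names is not reported here. All tests used all 6 libraries, and intervals cover the spread between libraries.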

Additional observations from a re-analysis of the deposited data

How the results depend on the processing

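Over the alternatives run, the calls of Dnmt1, Dnmt3a, Uhrf1 and Uhrf2 held in all 15, that of Tet1 in 14 and Mbd2 passed in 2. With a library left out, 3 of the 9 genes were higher in liver in each case, and 1 to 2 lower. Over all genes, 722 to 1245 were then higher and 486 to 989 lower, the lowest of each without spleen 2 and the highest without spleen 1, against 1087 and 808 with all libraries; at equal depth they were 618 and 423, and limma-voom called 1243 lower. Upper-quartile scaling called 954 higher and 1014 lower, so that 48.5% of calls were higher against 57.4% with TMM, and moved no call of the 9 genes. With a library left out the log2 fold change of Tet2 ran from -0.28 to 0.0028, the last without liver 3, and that of Cd8b1, a CD8 T cell gene, from -0.32 to 0.090 (0.090 without liver 1, 0.023 without spleen 3). That of Tor1aip1 was -0.030 at equal depth.

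The Dnmt1 to S phase ratio, near 0 throughout, ran from -0.025 (without spleen 1) to 0.10 with a library left out, was -0.0086 without liver 2, and was -0.012 with the median of the list; over the G2 phase and mitosis sum it was -1.01, and the Uhrf1 ratio -0.87. With a library left out the Uhrf1 ratio was 0.06 to 0.30, the Tet2 to Tet3 ratio -0.015 (without spleen 1) to 0.12 (-0.0092 without liver 2) and the Dnmt3a to Dnmt1 ratio -1.01 to -0.83. The causes were not tested. No paired analysis was possible because the labels give no replicate numbers. Spleen 1, the shallowest library, limits the genes of low counts, Tet1 and Dnmt3b, and the Dnmt3b difference was -0.11 without spleen 3.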
